A study of Homo sapiens with 29 samples.

Results

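The early response of human myoblasts to differentiation media, without any knockdown, was measured in the cell line LHCN-M2. The comparison rests on the 6 arrays labelled 48hr siControl, 3 in differentiation media (DIFF) and 3 in growth media, out of 29 arrays in the whole series. LHCN-M2 is an immortalized human myoblast line that carries telomerase and CDK4, so every culture is one line and holds an added cell cycle kinase in both media. All 6 cultures were labelled confluent, and all had received 20 nM of a nontargeting siRNA, a control designed to match no gene. The study's methods describe growth media with serum, dexamethasone, hepatocyte growth factor and basic fibroblast growth factor. For differentiation media they list insulin and apo-transferrin, and neither serum, dexamethasone nor those growth factors. These recipes are given for the study's siRNA screen, where only part of the growth media was substituted. Both groups carry the label 48 h, but the methods also describe a change of media after transfection, so the time since transfection is not taken to be equal. Arrays are numbered as biological replicates by the labels, and nothing more is said about separate cultures. The p-values measure only the spread between arrays within the groups. Unless a fit of the 6 arrays alone is named, that spread is estimated over the groups of the whole series and not from these 6 arrays.

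Myoblasts are dividing precursors of skeletal muscle. When growth factors are withdrawn, they leave the cell cycle, the MYOD family of transcription factors switches on muscle genes, and the cells fuse into multinucleated myotubes that build sarcomeres. Cyclins, replication factors and replication-dependent histones are made mainly in dividing cells, and their messages are classical markers of proliferation. Contractile proteins, calcium-handling proteins and muscle creatine kinase mark the later steps.

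The cell type was checked first against fixed marker genes. All 9 myoblast markers were well above background on all 6 arrays, and the median log2 signal of these markers lay between 14.22 and 14.98 in growth media and between 15.14 and 15.26 in DIFF. Over 9 myotube markers the median ran from 6.67 to 14.69 in growth media and from 10.18 to 11.75 in DIFF. The transcription factor MYOD1 had log2 signals of 16.17, 15.43 and 15.47 on growth replicates 1, 2 and 3 and 16.84, 16.80 and 16.67 on DIFF replicates 1, 2 and 3. The satellite cell factor PAX7 was low, with 4.87, 5.23 and 4.43 in growth media and 4.89, 5.74 and 4.92 in DIFF. Of 7 listed markers of blood cells 5 were tested, and the median over them was between 4.29 and 4.83 in growth media and between 4.53 and 5.36 in DIFF. CD14 and PTPRC, on that list, were well above background on all 6 arrays. CD14 stood at 10.44, 11.02 and 11.05 in growth media and 8.57, 8.18 and 6.97 in DIFF. Of 5 tested epithelial markers EPCAM and CDH1 were not well above background on any of the 6 arrays, and ESRP1 was on 1. The keratin genes KRT8 and KRT18, on the same list, were well above background on all 6, with signals of 9.42, 9.79 and 9.29 and 8.26, 8.10 and 8.13 in growth media and 10.47, 9.52 and 9.51 and 8.13, 8.34 and 8.37 in DIFF. Of 6 listed adipocyte markers 2 were tested. CIDEC was well above background on all 6 arrays, with 9.40, 9.30 and 9.45 in growth media and 9.01, 8.99 and 8.88 in DIFF. ADIPOQ was on 1 DIFF array. Of 6 listed Schwann cell and neuronal markers 3 were tested. RBFOX3 was well above background on all 6 arrays, with 10.87, 10.78 and 8.73 in growth media and 10.81, 9.44 and 11.03 in DIFF. SOX10 was on none. In bulk RNA, fewer cells of a type and less RNA per cell cannot be told apart.

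Growth replicate 1 stood apart from the other growth arrays. The log2 signal of CKM, muscle creatine kinase, was 16.03 on this array and 5.83 and 5.91 on growth replicates 2 and 3. That of MYH3, embryonic myosin heavy chain, was 17.35 against 8.55 and 8.69. Of 18432 genes tested, 1135 (6.16%) were more than 2-fold higher on growth replicate 1 than on both other growth arrays and 105 were more than 2-fold lower. Among 78 sarcomere genes 61 were higher by that measure. On growth replicate 1, 66 of them lay above all 3 DIFF arrays, as did 7112 of all 18432 genes. None of 78 mitosis genes was higher by that measure, and 1 was lower. The median signal of the mitosis list was 10.86 on this array, 11.41 and 11.45 on the other growth arrays, and 6.75, 6.91 and 6.82 on the DIFF arrays. The array therefore had most sarcomere genes above the DIFF level and mitosis genes near the level of the other growth arrays.

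The same array was set beside the 3 arrays of cultures in growth media that received ZNF148 siRNA. On those arrays the median signal of the sarcomere list was 12.98, 13.09 and 13.21, against 11.67 on growth replicate 1 and 6.36 and 6.38 on growth replicates 2 and 3. The median of the mitosis list was 8.16, 8.01 and 7.74 with ZNF148 siRNA, so that growth replicate 1, at 10.86, was near them for the contractile genes and not for the dividing-cell genes. The transcript ZNF148 itself had log2 signals of 8.52, 8.85 and 9.18 in growth media and 9.44, 9.46 and 9.31 in DIFF, and a mean of 6.78 with ZNF148 siRNA in growth media. What sets growth replicate 1 apart was not tested. Results are therefore given with all arrays and again without it, and the array slides are named where they matter: each of 3 slides held 1 array of each media, and growth replicate 1 shared its slide with DIFF replicate 3. With the slide as a block and all arrays no call on a gene named here changed.

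The promoters of the genes that carry the findings are shown for reference. The letters are RefSeq sequence of build GRCh38.p14, 250 bases before the start of the gene, read 5′ to 3′ on the strand of the gene. In the first 3 promoters, of genes that fell in DIFF, capitals mark TTTGAA (the cell cycle homology region, CHR) and CCAAT on either strand, which on the other strand reads ATTGG. In H3C2, a replication-dependent histone H3 gene that fell, capitals mark TATAAA and CCAAT. In the muscle genes CKM and KLHL41 they mark the E-box CAGCTG, the kind of site that MYOD family factors bind, and CCAAT, which the letters of KLHL41 do not hold.
SPC25 (chr2:168890431-168890680, minus strand): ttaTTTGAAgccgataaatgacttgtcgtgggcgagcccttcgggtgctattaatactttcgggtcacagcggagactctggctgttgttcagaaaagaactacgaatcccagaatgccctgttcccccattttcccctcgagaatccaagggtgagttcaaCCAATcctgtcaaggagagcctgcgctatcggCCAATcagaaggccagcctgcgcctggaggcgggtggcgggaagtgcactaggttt
HMMR (chr5:163460382-163460631, plus strand): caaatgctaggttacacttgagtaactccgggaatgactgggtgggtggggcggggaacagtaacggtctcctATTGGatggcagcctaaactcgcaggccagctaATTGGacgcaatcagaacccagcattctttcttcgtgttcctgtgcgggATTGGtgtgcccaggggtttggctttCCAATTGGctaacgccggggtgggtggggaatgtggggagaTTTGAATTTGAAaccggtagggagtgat
CDC20 (chr1:43358731-43358980, plus strand): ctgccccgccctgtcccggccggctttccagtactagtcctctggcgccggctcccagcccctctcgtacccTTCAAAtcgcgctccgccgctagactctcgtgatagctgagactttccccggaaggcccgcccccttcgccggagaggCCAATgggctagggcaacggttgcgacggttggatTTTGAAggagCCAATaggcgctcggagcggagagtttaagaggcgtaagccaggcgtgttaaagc
H3C2 (chr6:26032100-26032349, minus strand): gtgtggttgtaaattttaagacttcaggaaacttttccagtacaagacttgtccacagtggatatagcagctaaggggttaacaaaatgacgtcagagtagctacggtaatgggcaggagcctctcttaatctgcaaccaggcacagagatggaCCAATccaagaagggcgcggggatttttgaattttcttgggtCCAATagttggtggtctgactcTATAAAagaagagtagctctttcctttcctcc
CKM (chr19:45322876-45323125, minus strand): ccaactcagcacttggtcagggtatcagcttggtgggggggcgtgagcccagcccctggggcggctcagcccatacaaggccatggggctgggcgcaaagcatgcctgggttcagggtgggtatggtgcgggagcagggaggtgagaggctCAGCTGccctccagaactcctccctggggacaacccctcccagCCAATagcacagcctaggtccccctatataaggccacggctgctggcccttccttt
KLHL41 (chr2:169509452-169509701, plus strand): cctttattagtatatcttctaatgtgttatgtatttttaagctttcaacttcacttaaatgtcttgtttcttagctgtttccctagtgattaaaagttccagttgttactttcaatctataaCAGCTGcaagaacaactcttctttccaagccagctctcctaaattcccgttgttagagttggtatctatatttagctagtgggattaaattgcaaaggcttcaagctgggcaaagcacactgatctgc

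These short motifs were counted on both strands in the same window. Of the 78 mitosis genes tested 66 had a promoter in the table, and of these 29 (43.9%) held TTTGAA and 46 (69.7%) held CCAAT. Over the 35116 promoters of the table the shares were 13.3% and 32%, and over the 14129 tested genes with a promoter 10.1% and 34.7%. Of 47 promoters of histone genes from the HIST1H cluster 41 (87.2%) held CCAAT and 31 (66%) held TATAAA, which 10.7% of all promoters held. Of 58 promoters of sarcomere genes 18 (31%) held CAGCTG, against 14% of all promoters. These motifs were not particular to these lists. Whether a motif goes with the direction of change was not tested gene by gene. CAGCTG was in 38.1% of promoters of the glucocorticoid response list and in 10% of those of myogenic regulators. CCAAT was in 67.7% of those of the sterol and fatty acid list. TTTGAA was in 3.92% of those of DNA replication genes, which also fell. It was in 31.9% of those of the HIST1H list and in 31.6% of those of the progenitor and inhibitor list. The E2F site TTTGGCGC was searched too. It was in 11.8% of DNA replication promoters and 4.55% of mitosis promoters, against 0.75% over the tested genes. It was in 8% of promoters of the cell cycle brake list, and in 0% of those of the sarcomere, muscle metabolism and HIST1H lists. In HMMR a CCAAT on one strand overlaps one on the other. A match is a description of the letters and not of a bound site.

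The first question was how many genes differed between the media. With all arrays, 5201 of 38839 probes (13.4%) changed by more than 2-fold at an adjusted p under 0.05, 2652 higher and 2549 lower in DIFF. By gene, each given by its brightest tested probe, 2927 of 18432 (15.9%) changed, 1420 (7.7%) higher and 1507 (8.18%) lower. Without growth replicate 1 there were 3248 genes (17.6%), 1668 (9.05%) higher and 1580 (8.57%) lower. Both fits called 2681 genes, each on the same side, which is 91.6% of the first set and 82.5% of the second. Of those called with all arrays 96.4% had the same sign on each of the 3 slides, against 64.7% of all genes. The slide differences come from the same arrays as the calls, so the higher share follows from the selection and is no separate support. The groups did not overlap for 51.9% of all genes, and for 62.9% without growth replicate 1. The median log2 change over all genes was 0.01 with all arrays and 0.02 without that array.

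**Figure D1:**
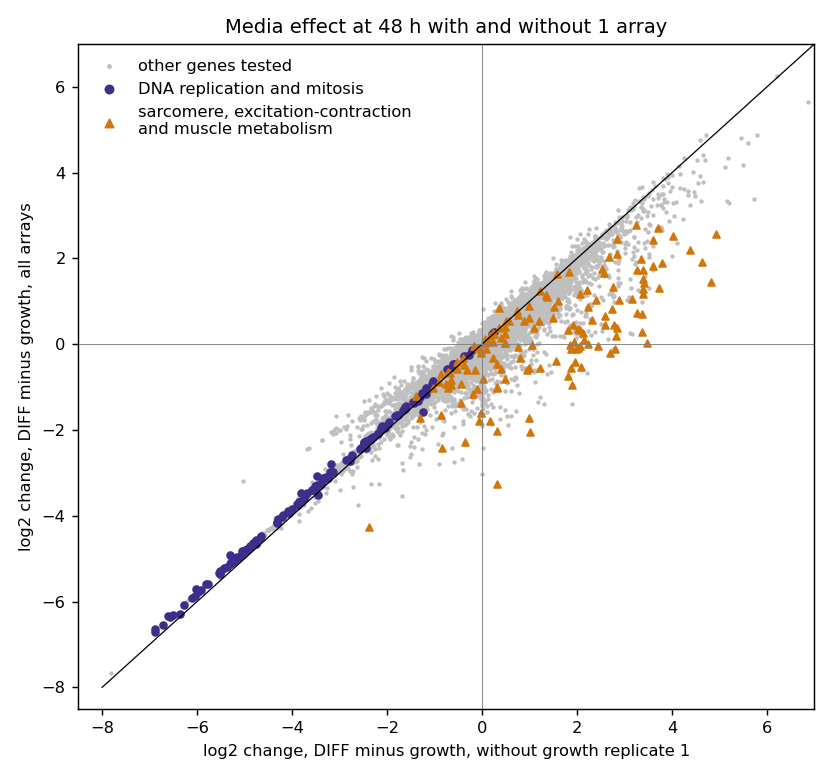
Log2 change between DIFF and growth media at 48 h for every gene tested, with all arrays (vertical axis) and without growth replicate 1 (horizontal axis), with the line of equal values. The replication and mitosis genes lie close to the line at negative values, while the sarcomere, excitation-contraction and muscle metabolism genes lie mostly below it, at positive values on the horizontal axis.

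Genes of cell division fell together. Of 78 mitosis genes tested 73 (93.6%) were lower in DIFF and none was higher, and of 61 DNA replication genes 53 (86.9%) were lower and none was higher, against 8.18% lower among all genes. The median log2 change was -4.06 for the mitosis list and -2.06 for the replication list. Without growth replicate 1 the counts were 74 and 54, and the medians -4.26 and -2.19. On the slides of growth replicates 1, 2 and 3 the median difference between the DIFF and the growth array was -3.64, -4.36 and -4.38 for the mitosis list and -1.82, -2.15 and -2.17 for the replication list.

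MKI67, the proliferation antigen Ki-67, had log2 signals of 10.69, 11.29 and 11.37 on growth replicates 1, 2 and 3 and 6.06, 6.35 and 5.97 on DIFF replicates 1, 2 and 3. All 3 growth arrays, growth replicate 1 included, lay far above the DIFF arrays. It fell by 4.99 (SE 0.208, limma, adjusted p = 4.5e-14). CDK1, the kinase that drives entry into mitosis, had 10.90, 11.35 and 11.51 in growth media and 5.90, 6.43 and 6.26 in DIFF, and fell by 5.05 (SE 0.183, limma, adjusted p = 4.72e-15). Its partners CCNB1 and CCNA2 fell by 3.58 and 5.06, and FOXM1, a transcription factor of the G2 and M phases, fell by 2.98. None of these groups overlapped.

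The largest fall among genes measured on all 6 arrays was that of SPC25, a subunit of the NDC80 kinetochore complex. Its signals were 11.31, 11.84 and 11.92 in growth media and 4.80, 5.31 and 4.89 in DIFF, a fall of 6.70 (SE 0.287, limma, adjusted p = 7.16e-14). HMMR, a spindle-associated hyaluronan receptor, stood at 12.40, 12.57 and 12.69 in growth media and 6.29, 6.47 and 6.06 in DIFF and fell by 6.28. DLGAP5, KIF20A, KIF2C and KIF4A, which act on spindle microtubules, fell by 6.36, 6.07, 5.88 and 5.78, and DEPDC1 and GTSE1 fell by 5.94 and 5.72. CDC20, an activator of the anaphase-promoting complex whose promoter holds both motifs, fell by 3.29, from 10.60, 11.32 and 10.98 to 7.65, 7.64 and 7.74. CENPA, the centromeric histone, and the kinase NEK2 were not well above background on any DIFF array. Set against the lowest signal well above background on each of those arrays, they were at least 39.5-fold and 35.2-fold lower (limma, adjusted p = 6.03e-12 and 3.93e-14).

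Among the replication genes, RRM2, a subunit of ribonucleotide reductase, had log2 signals of 10.22, 10.85 and 10.73 in growth media and 4.96, 5.02 and 4.07 in DIFF, and fell by 5.92 (SE 0.248, limma, adjusted p = 5.14e-14). The thymidine kinase TK1 and the thymidylate synthase TYMS fell by 4.65 and 2.44. E2F1, a transcription factor of S phase, fell by 3.67, and the cyclin CCNE2 by 4.78. The replicative helicase subunit MCM2 fell less, by 1.45, from 11.25, 11.63 and 11.74 to 10.11, 10.12 and 10.03, with no overlap. MCM10 and CLSPN, which act at the replication fork, were not well above background on any DIFF array and were at least 16.1-fold and 17-fold lower.

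Of 52 genes of the HIST1H histone cluster tested, 27 (51.9%) were lower by more than 2-fold, with or without growth replicate 1, and none was higher, against 8.18% and 8.57% lower among all genes. The median log2 change of the list was -1.13, and -1.18 without that array. H3C2 had signals of 12.32, 12.81 and 12.70 in growth media and 8.32, 8.14 and 7.88 in DIFF, a fall of 4.50 (SE 0.122, limma, adjusted p = 7.04e-17). The linker histone H1-5 fell by 5.14, and the H2A genes H2AC16 and H2AC11 by 4.86 and 4.59. H3C15, a histone H3 gene outside the cluster, fell by 6.58. Because genes of one histone type hardly differ in sequence, a probe may read several of them.

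A list of inhibitors and brakes of the cell cycle was counted too. It is mixed, and also holds cyclins and kinases that drive the cycle, such as CCND1 and CDK2. Of 33 tested 7 (21.2%) were higher and 6 (18.2%) lower in DIFF, against 7.7% and 8.18% of all genes, with the same counts without growth replicate 1. GADD45G, a growth arrest gene, rose from 11.84, 9.57 and 9.51 to 13.98, 13.90 and 13.76, by 3.57 (limma, adjusted p = 2.48e-08) and by 4.34 without growth replicate 1, which lay between the other growth arrays and DIFF. CDKN1C, which codes for the CDK inhibitor p57, had 15.70, 11.56 and 11.44 in growth media and 15.56, 15.06 and 14.40 in DIFF. Its growth replicate 1 lay above all DIFF arrays, so that the rise of 2.11 (limma, adjusted p = 0.0117) was 3.51 without it (adjusted p = 4.55e-12). That call was lost without growth replicate 2, growth replicate 3 or DIFF replicate 1, at changes of 1.44, 1.37 and 1.83. CDKN1A, which codes for p21, did not pass the threshold, with 10.24, 10.13 and 9.83 in growth media and 10.02, 9.56 and 9.46 in DIFF. The members that fell include CDK2, the kinase that p21 binds, and CDKN3, CDKN2D and RBL1, which fell by 4.45, 2.34 and 2.16. The cyclin CCND1, a partner of the CDK4 that this line carries, changed by -0.80 (limma, adjusted p = 8.05e-07), less than 2-fold.

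**Figure D2:**
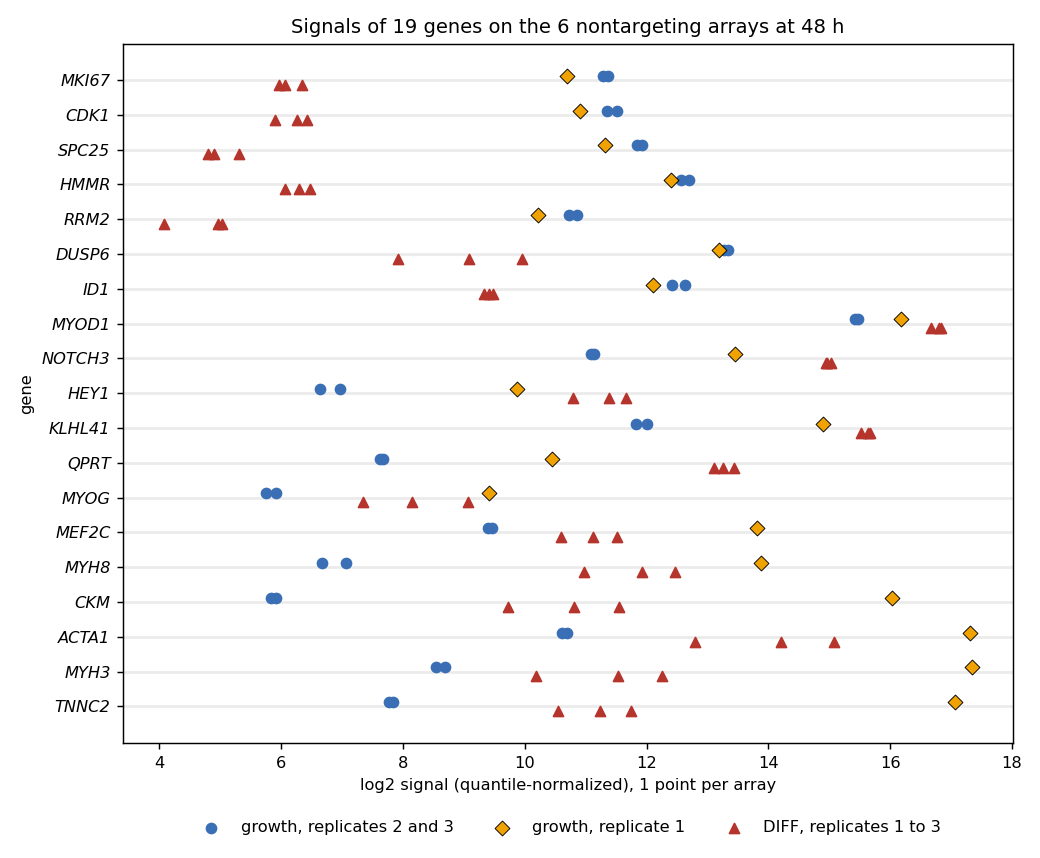
Log2 signal of 19 genes on each of the 6 arrays, with growth replicate 1 as a diamond, growth replicates 2 and 3 as circles and the 3 DIFF arrays as triangles. For the upper 7 genes all growth arrays lie above all DIFF arrays, for MYOD1, NOTCH3, HEY1, KLHL41 and QPRT growth replicate 1 lies between the other growth arrays and DIFF, and for the 7 genes from MYOG down it lies above all DIFF arrays.

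Feedback genes and ligands of the growth factor (ERK) pathway were lower in DIFF. Of 44 tested 23 (52.3%) were lower and 3 (6.82%) higher with all arrays, against 8.18% and 7.7% of all genes, and 23 lower and 2 higher without growth replicate 1, with a median log2 change of -1.20 in both. DUSP6, the phosphatase that ERK induces against itself, had log2 signals of 13.19, 13.27 and 13.34 in growth media and 9.96, 9.08 and 7.92 in DIFF, and fell by 4.28 (SE 0.272, limma, adjusted p = 3.57e-11). The DIFF arrays were more widely spread than the growth arrays, and none reached one. The feedback inhibitors SPRY2 and SPRY4 fell by 1.50 and 1.37, and the ETS factor ETV5 by 1.47. FOSL1, an AP-1 subunit, fell by 3.56. EGR1 and MYC, immediate early genes, changed by -0.74 and -0.40, both less than 2-fold. The EGF family ligand AREG had 9.96, 10.29 and 10.52 in growth media and was not well above background on any DIFF array, at least 78.7-fold lower (limma, adjusted p = 9.52e-17), and EREG and HBEGF were at least 8.59-fold and 5.16-fold lower. ATF3, a stress-responsive factor on the same list, rose by 3.10 on its brightest probe, while its tested probes ranged from 0.01 to 3.10.

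Dexamethasone is a glucocorticoid that the recipes list for growth media and not for differentiation media. Genes that glucocorticoids are known to induce were counted as a list. Of 29 tested 12 (41.4%) were lower and 4 (13.8%) higher with all arrays, against 8.18% and 7.7% of all genes, and 11 lower and 4 higher without growth replicate 1. The median log2 change was -0.58, and -0.33 without that array. The co-chaperone FKBP5 had 10.20, 10.57 and 10.61 in growth media and 9.46, 9.42 and 9.30 in DIFF, and fell by 1.07 (limma, adjusted p = 3.33e-07). PER1 and ZBTB16 fell by 1.16 and 2.31. FKBP5 was just under 2-fold without growth replicate 3, at -0.99, and PER1 without DIFF replicate 1, at -0.94. TSC22D3 changed by -0.34, with overlapping groups, and KLF9 by 0.20. PTGDS, a prostaglandin D synthase, rose by 3.15 (limma, adjusted p = 2.24e-15), from 13.17, 13.05 and 13.11 to 16.20, 16.28 and 16.29.

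Of 28 inflammatory genes tested 12 (42.9%) were lower and 2 (7.14%) higher, against 8.18% and 7.7% of all genes, and 14 lower and 2 higher without growth replicate 1. IL6 had 7.94, 8.15 and 8.44 in growth media and 4.79, 4.62 and 4.04 in DIFF and fell by 3.69 (limma, adjusted p = 4.31e-12). The neutrophil chemokines CXCL1 and CXCL3 fell by 2.53 and 2.90, with DIFF replicate 3 the lowest for both, at 6.37 and 4.78. The chemokine CXCL12 rose by 3.36 on its brightest probe, from 4.40, 4.99 and 4.62 to 8.08, 8.14 and 7.86, while its tested probes ranged from -0.12 to 3.36.

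Regulators of the muscle programme were higher in part. Of 28 tested 9 (32.1%) were higher and none lower with all arrays, against 7.7% higher among all genes, and 15 (53.6%) were higher and none lower without growth replicate 1, against 9.05%. The median log2 change was 0.65 and 1.01. MYOD1 rose by 1.08 (SE 0.121, limma, adjusted p = 2.13e-07), and by 1.32 without growth replicate 1, which was the highest of the growth arrays and below every DIFF array. MYF5, its relative, had 12.48, 12.64 and 12.84 in growth media and 11.69, 12.77 and 13.17 in DIFF, overlapping, with a change of -0.11. MYOG, myogenin, had 9.42, 5.92 and 5.75 in growth media and 9.06, 8.15 and 7.35 in DIFF. With growth replicate 1 its change was 1.15 (SE 0.611, limma, adjusted p = 0.156), and without that array it rose by 2.35 (SE 0.347, adjusted p = 1.15e-05). MEF2C, a MADS box partner of the MYOD family, changed by 0.19 (limma, adjusted p = 0.898) and rose by 1.65 without that array (adjusted p = 3.15e-08). The homeobox factor PITX3 rose by 2.05 and the T-box factor TBX1 by 1.30, with growth replicate 1 close to the other growth arrays. TEAD4, a partner of YAP and of the VGLL cofactors, and RBM24, an RNA-binding regulator of muscle splicing, rose by 1.16 and 1.19, with growth replicate 1 above the DIFF arrays for RBM24. Without growth replicate 2 or 3 the changes were less than 2-fold for MYOD1 (0.95 and 0.97), TEAD4 (0.86 and 0.92) and RBM24 (0.89 and 0.86).

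The progenitor and inhibitor list is mixed. It holds progenitor genes, Notch pathway genes and inhibitors of differentiation, and not every member holds differentiation back. Of 27 tested 9 (33.3%) were higher and 4 (14.8%) lower with all arrays, against 7.7% and 8.18% of all genes, and 11 higher and 4 lower without growth replicate 1. ID1, which sequesters the partners of MYOD, had 12.11, 12.41 and 12.63 in growth media and 9.41, 9.48 and 9.33 in DIFF and fell by 2.98 (SE 0.107, limma, adjusted p = 4.03e-15). ID3 changed by -0.44, less than 2-fold. The list holds 8 tested genes of the Notch pathway, a brake on differentiation, which were picked out after values were seen. With all arrays NOTCH3, HEY1, DLL1 and HEYL passed as higher, and NOTCH1, NOTCH2, HES1 and JAG1, at changes of 0.08, 0.15, 1.02 and 0.76, did not pass. JAG1 passed without growth replicate 1, at 1.03. The receptor NOTCH3 had 13.46, 11.13 and 11.09 in growth media and 15.03, 14.97 and 14.94 in DIFF, a rise of 3.09 (SE 0.353, limma, adjusted p = 2.73e-07) and of 3.87 without growth replicate 1. The Notch target HEY1 rose by 3.46, from 9.88, 6.64 and 6.96 to 10.79, 11.38 and 11.67. The ligand DLL1 rose by 2.87, with 8.53, 8.19 and 8.39 in growth media, where growth replicate 1 did not stand apart, and 11.05, 11.27 and 11.40 in DIFF. The factors SOX8 and SOX4 rose by 2.66 and 2.96. For each of NOTCH3, HEY1, DLL1, SOX8 and SOX4 no growth array reached a DIFF array.

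For the contractile genes the answer turned on growth replicate 1. Of 78 sarcomere genes tested 6 (7.69%) were higher and 2 lower with all arrays, close to the 7.7% of all genes, with a median log2 change of 0.18, which was -0.04 under normexp background correction. Without growth replicate 1, 46 (59%) were higher and 2 lower, against 9.05% higher among all genes, with a median of 1.82. On the slides of growth replicates 2 and 3 the median difference between the DIFF and the growth array was 1.81 and 1.64, and on that of growth replicate 1 it was -2.99. In the 33 genes of excitation-contraction coupling 7 were higher with all arrays and 16 (48.5%) without that array, and in the 33 genes of muscle metabolism 2 and 11. In the 16 genes of the neuromuscular receptor list 5 and 8 were higher.

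ACTA1, skeletal muscle actin, had log2 signals of 17.31, 10.70 and 10.61 on growth replicates 1, 2 and 3 and 15.08, 14.21 and 12.80 on DIFF replicates 1, 2 and 3. Growth replicate 1 was the highest of the 6, and the other growth arrays were the lowest. The change was 1.16 with all arrays (SE 1.03, limma, adjusted p = 0.444), and without growth replicate 1 it was a rise of 3.38 (SE 0.348, adjusted p = 9.42e-08). CKM had 16.03, 5.83 and 5.91 in growth media and 11.54, 10.81 and 9.73 in DIFF, with a change of 1.44 (SE 1.52, limma, adjusted p = 0.538) and, without growth replicate 1, a rise of 4.82 (SE 0.293, adjusted p = 3.43e-11). MYH3 had 17.35, 8.55 and 8.69 and 12.25, 11.53 and 10.18, and its change went from -0.21 (adjusted p = 0.952) to 2.70 (adjusted p = 1.17e-06) when that array was left out of the limma fit. The perinatal myosin MYH8 rose by 4.92 without growth replicate 1, from 6.67 and 7.06 on growth replicates 2 and 3 to 12.47, 11.92 and 10.97 in DIFF. The fast troponin C gene TNNC2 rose by 3.37, and the giant proteins TTN and NEB by 3.41 and 4.38, in the same fit. None of MYH8, TNNC2, TTN and NEB passed in the main fit of all arrays. With array weights they did, at 4.3, 2.42, 2.82 and 3.65, and MYH8 also passed with a stricter filter of probes, at 2.58. For TTN the tested probes ranged from 0.25 to 2.47 with all arrays.

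A few muscle genes passed in both fits. KLHL41, a stabiliser of thin filament proteins whose promoter is given above, had 14.90, 11.82 and 12.01 in growth media and 15.52, 15.67 and 15.64 in DIFF. It rose by 2.70 (SE 0.446, limma, adjusted p = 3.65e-05) and by 3.70 without growth replicate 1, with no overlap in either case. It did not pass in a fit of the 6 arrays alone (limma, adjusted p = 0.0768). FLNC, muscle filamin, rose by 2.46, from 12.32, 11.16 and 11.12 to 13.97, 13.92 and 14.08. STAC3, an adaptor of the calcium release machinery, rose by 2.43, but its growth replicate 1, at 14.54, lay among the DIFF arrays at 14.42, 14.68 and 14.79. The sodium channel SCN4A was not well above background on any growth array and was at least 2.22-fold higher in DIFF, but its change was 0.68, less than 2-fold, under normexp background correction. The fetal acetylcholine receptor subunit CHRNG rose by 2.24 and RAPSN, which clusters the receptor, by 1.51. With the 6 arrays alone CHRNG and STAC3 did not pass (limma, adjusted p = 0.191 and 0.152), and in the methods' t-test after adjustment neither CHRNG nor RAPSN did. The creatine kinase CKB rose by 1.99 with all arrays and by 3.35 without growth replicate 1, and did not pass without growth replicate 2, growth replicate 3 or DIFF replicate 1, at 1.36, 1.25 and 1.74. The ryanodine receptor RYR1 rose by 3.26 without that array (limma, adjusted p = 7.63e-06) and did not pass with it (adjusted p = 0.0946), while the voltage sensor CACNA1S passed in neither fit. Without growth replicate 2 or 3 CACNA1S was lower in DIFF, at -1.63 and -1.64, with growth replicate 1 at 7.68 and the others at 3.82 and 3.79. XIRP2 and TRDN were called lower with all arrays. They were well above background on growth replicates 1 and 3 and on no DIFF array, and neither passed without growth replicate 1 (limma, adjusted p = 0.0654 and 0.122). TRDN also did not pass without DIFF replicate 2 or 3, at -2.24 and -2.27.

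Of 39 genes of fusion and adhesion 7 (17.9%) were higher and 5 (12.8%) lower with all arrays, against 7.7% and 8.18% of all genes, and 13 higher and 5 lower without growth replicate 1. MYMK, myomaker, the membrane protein needed for fusion, was high in both media, with 14.69, 14.78 and 14.48 in growth media and 14.77, 14.81 and 14.81 in DIFF, and changed by 0.14 (limma, adjusted p = 0.194). The myoblast cadherin CDH15 rose by 1.62, from 14.98, 13.02 and 13.04 to 15.24, 15.31 and 15.34, and did not pass in the 6 arrays alone (limma, adjusted p = 0.0987). The laminin receptor subunit ITGA7 rose by 1.32 and ITGA4, a receptor of fibronectin and VCAM1, by 1.91. The tetraspanin CD9 fell by 2.05.

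**Figure D3:**
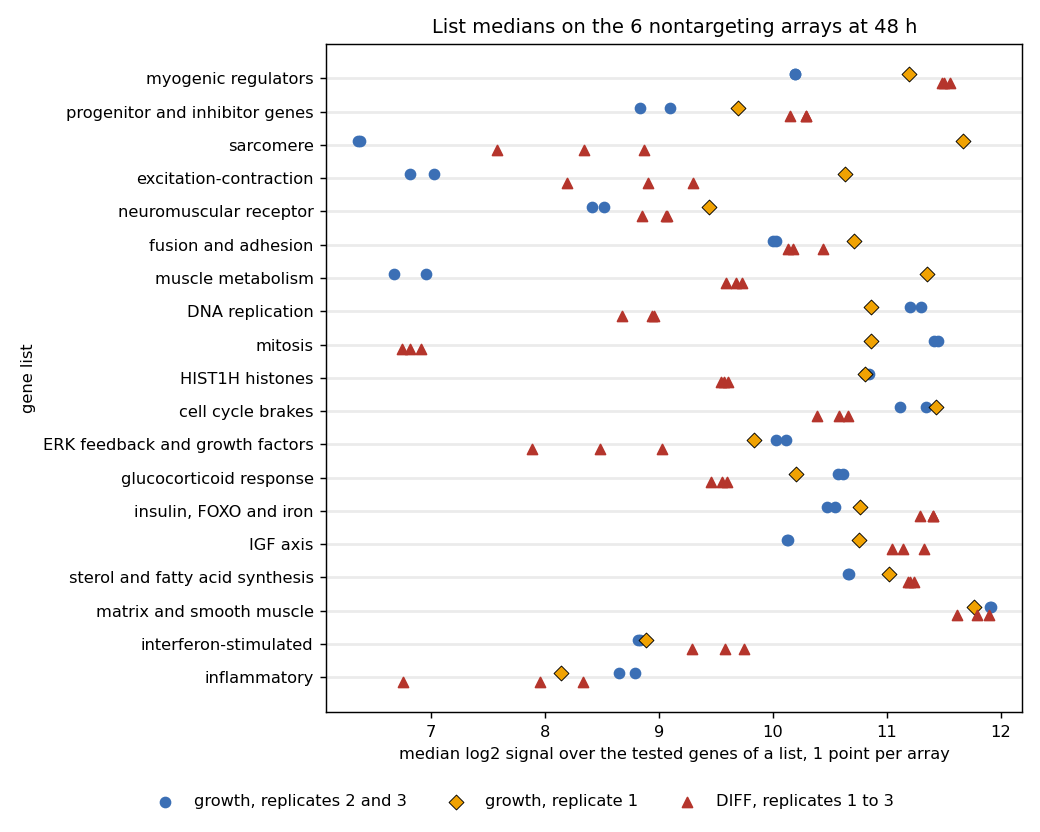
Median log2 signal over the tested genes of each of 19 lists on each of the 6 arrays, with growth replicate 1 as a diamond, growth replicates 2 and 3 as circles and the DIFF arrays as triangles. Growth replicate 1 lies above the DIFF arrays for the sarcomere list (11.67 against 8.87, 8.34 and 7.58), the excitation-contraction list and the muscle metabolism list, and near the other growth arrays for the mitosis, DNA replication and histone lists.

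The largest rises among genes measured on all 6 arrays were mostly of genes outside the muscle lists. QPRT, an enzyme of NAD synthesis, had log2 signals of 10.44, 7.68 and 7.63 in growth media and 13.11, 13.25 and 13.43 in DIFF. It rose by 4.68 (SE 0.429, limma, adjusted p = 1.05e-08), and by 5.61 without growth replicate 1, which again lay between. The surface glycoprotein CD24 had 6.50, 5.74 and 5.74 and 10.37, 10.45 and 10.38 and rose by 4.41. ATP2A3, a calcium pump of the endoplasmic reticulum, had 5.78, 6.15 and 6.01 and 9.98, 10.38 and 10.63 and rose by 4.35 on its brightest probe, with tested probes between 2.01 and 4.35. RIMS3 and CLSTN2, known from synapses, rose by 4.29 and 4.13. The collagen gene COL14A1 rose by 4.02, the prostacyclin synthase PTGIS by 3.97, the photomedin family gene OLFML2A by 3.96, the activin receptor-like kinase ACVR1C by 3.94 and FGL2 by 3.87. Growth replicate 1 lay close to the other growth arrays for ATP2A3, PTGIS, ACVR1C and FGL2. Without that array CACNG6, MUSTN1, MYH8, CKM, TAS1R1 and APOBEC2 entered the 10 largest. The size of the TAS1R1 rise rested on DIFF replicate 3, at 17.33 against 9.54 and 9.72 on the other DIFF arrays, though its call held without that array. TAS1R1 did not pass without growth replicate 2 or 3, at 3.36 and 3.33.

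Genes that insulin, FOXO factors and iron regulate formed another list. Of 29 tested 8 (27.6%) were higher, against 7.7% of all genes, and 3 (10.3%) lower, close to the 8.18% of all genes, with 11 higher and 3 lower without growth replicate 1. The ubiquitin ligase FBXO32, atrogin-1, a FOXO target of muscle, had 10.76, 10.09 and 10.33 in growth media and 12.76, 13.24 and 13.43 in DIFF and rose by 2.75 (SE 0.14, limma, adjusted p = 1.03e-12). FOXO1 rose by 1.33 and TXNIP, a regulator of glucose uptake, by 1.15, and TXNIP did not exceed 2-fold with the slide as a block and without growth replicate 1. IRS2, an insulin receptor substrate, changed by -0.54, less than 2-fold. The iron exporter SLC40A1 rose by 1.99, and the transferrin receptor TFRC changed by -0.58, from 13.61, 13.80 and 13.87 to 13.25, 13.18 and 13.12, without overlap but by less than 2-fold.

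In the IGF axis 3 of 19 genes (15.8%) were higher and 1 (5.26%) lower, against 7.7% and 8.18% of all genes, and 6 higher and 1 lower without growth replicate 1. IGF2, an autocrine growth factor of myoblasts, had 18.10, 16.45 and 16.52 in growth media and 17.65, 17.71 and 17.63 in DIFF. It changed by 0.64 (limma, adjusted p = 0.0492) and rose by 1.18 without growth replicate 1 (adjusted p = 3.47e-10). IGFBP5, an IGF binding protein of differentiating muscle, rose by 4.18, from 7.75, 3.60 and 3.98 to 8.27, 9.53 and 10.07, and was well above background on 1 growth array. IGF1 was not well above background on any growth array and was at least 3.43-fold higher in DIFF, while IGFBP1 was at least 3.84-fold lower. Under normexp background correction their changes were 0.86 and -0.86, less than 2-fold, so that both calls and both bounds rest on the background correction used. The change of IGFBP5 did not pass in a fit of the 6 arrays alone (limma, adjusted p = 0.0611).

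Of 45 matrix and smooth muscle genes 3 (6.67%) were higher and 8 (17.8%) lower, against 7.7% and 8.18% of all genes, and 2 and 7 without growth replicate 1. HAS2, hyaluronan synthase, had 10.88, 11.11 and 11.16 in growth media and 5.80, 5.72 and 5.32 in DIFF and fell by 5.44 (limma, adjusted p = 1.07e-17). The smooth muscle actin ACTG2 and the actin-binding protein TAGLN fell by 5.19 and 2.70. COL1A1 and ACTA2 changed by -0.15 and 0.12, with growth replicate 1 the highest array for both. Of 41 genes of sterol and fatty acid synthesis 2 (4.88%) were higher and 2 lower, below those shares of all genes, and 5 and 1 without growth replicate 1. Of 30 interferon-stimulated genes 6 (20%) were higher and 2 (6.67%) lower, against the same shares, and 5 and 3 without growth replicate 1. IFIT1 rose by 1.64 and STAT2 by 1.26, while OASL fell by 1.67.

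Markers of other cell types were read beside these results. Of 8 fibroblast markers LUM, a proteoglycan, rose by 1.30 and PDGFRA fell by 1.06, and THY1 changed by 0.10. PDGFRA did not exceed 2-fold without growth replicate 3 or without DIFF replicate 3, where it was -0.93. The median of the fibroblast markers was between 9.93 and 10.64 in growth media and between 10.40 and 10.75 in DIFF. Of 5 tested endothelial markers TEK rose by 1.98 and CLDN5 by 1.27, while CLDN5 did not pass without growth replicate 2 or 3, at 0.98 and 0.75. PECAM1 changed by -0.17, VWF by 0.08 and CDH5 by -0.26. CD14, a monocyte marker, fell by 2.93, while the leukocyte antigen PTPRC changed by 0.15. The part of these markers in the results was not tested.

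The media effect at 48 h was next compared with that at 96 h, where 3 DIFF arrays and 2 growth arrays had nontargeting siRNA and none is shared. At 96 h 5053 probes (13%) and 2777 genes (15.1%) differed between the media, 1252 genes (6.79%) higher and 1525 (8.27%) lower in DIFF. The effect at 48 h differed from that at 96 h for 3143 probes (8.09%), more positive at 48 h for 1617 and more negative for 1526, and for 2753 (7.09%) without growth replicate 1. By gene these were 1842 (9.99%), and 1637 (8.88%) without that array, 869 (4.71%) more positive and 768 (4.17%) more negative at 48 h.

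Without growth replicate 1 the effect was more negative at 48 h for 45 of 78 mitosis genes and more positive for none, and for 10 of 61 replication genes and none. Over all genes the shares were 4.17% and 4.71%. The median change of the mitosis list was -4.26 at 48 h without growth replicate 1 and -2.96 at 96 h, where 74 were lower. On single arrays the median signal of the mitosis list was 6.75, 6.91 and 6.82 in DIFF at 48 h and 8.16, 8.25 and 8.11 at 96 h, against 11.17 and 11.08 in growth media at 96 h. With all arrays HMMR, for example, fell by 6.28 at 48 h and by 3.63 at 96 h, a difference of -2.66 (SE 0.193, limma, adjusted p = 7.97e-09). SPC25 differed by -2.69 (limma, adjusted p = 8.65e-05). For H3C2 the difference of -0.47 did not pass (limma, adjusted p = 0.0723).

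For sarcomere genes, without growth replicate 1, the effect was more negative at 48 h than at 96 h for 16 of 78 and more positive for 6. For excitation-contraction genes it was more negative for 12 of 33 and more positive for 3. Over all genes it was more negative for 4.17% and more positive for 4.71%. The median signal of the sarcomere list was 8.87, 8.34 and 7.58 in DIFF at 48 h and 10.57, 10.75 and 10.82 at 96 h, and 7.81 and 7.88 in growth media at 96 h against 6.36 and 6.38 on growth replicates 2 and 3 at 48 h. Growth replicate 1, at 11.67, lay above all DIFF arrays of both times. For CKM the mean was 14.31 in DIFF at 96 h and 9.77 in growth media, and the difference of the effects was 0.29 without growth replicate 1 (limma, adjusted p = 0.733) and -3.10 with it (adjusted p = 0.402). For TNNC2 the difference was -1.42 without it (limma, adjusted p = 0.00283), and for MEF2C -1.06 (adjusted p = 0.00148).

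Some large rises were present at 48 h and not at 96 h. ATP2A3 had means of 6.89 in DIFF and 6.79 in growth media at 96 h, so that its effect was 4.25 larger at 48 h (SE 0.451, limma, adjusted p = 8.24e-07). PTGIS had 6.82 and 7.13, with a difference of 4.28 (adjusted p = 1.33e-07), and ITGA4 one of 1.78 (limma, adjusted p = 7.37e-05). FBXO32 changed by 0.81 at 96 h, 1.94 less than at 48 h. MYF5 fell at 96 h, with a change of -2.48 (limma, adjusted p = 1.02e-07), and did not pass at 48 h, and the difference was 2.37 (adjusted p = 2.74e-05). CD24, RIMS3 and HEY1 rose by 4.75, 4.11 and 3.51 at 96 h, and their differences of -0.35, 0.17 and -0.05 from the effect at 48 h did not pass with all arrays.

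**Figure D4:**
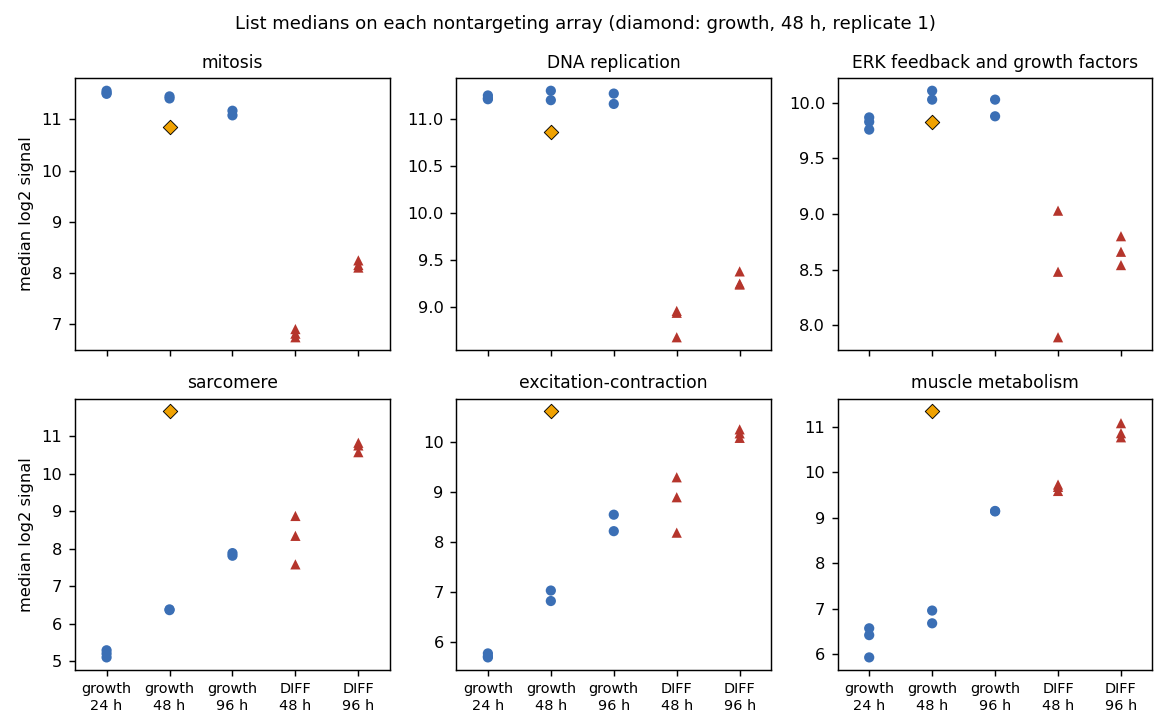
Median log2 signal of 6 gene lists on each of the 14 nontargeting arrays, by media and labelled hours, with growth replicate 1 at 48 h as a diamond. The cell cycle lists are lowest in DIFF at 48 h, and the muscle lists are higher in DIFF at 96 h than at 48 h, while the diamond lies above all other arrays in the 3 muscle panels.

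The same change of media was also made with ZNF148 siRNA, 3 arrays in each media at 48 h. There 1235 probes (3.18%) and 730 genes (3.96%) differed between the media, against 5201 (13.4%) with nontargeting siRNA. The media effect differed between the siRNAs for 5419 probes (14%), 2821 higher and 2598 lower with nontargeting siRNA, and for 5790 (14.9%) without growth replicate 1. By gene these were 3147 (17.1%), and 3390 (18.4%) without that array, 1880 (10.2%) higher and 1510 (8.19%) lower.

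Without growth replicate 1 the effect with nontargeting siRNA was the more negative for 71 of 78 mitosis genes, 49 of 61 replication genes and 29 of 52 HIST1H genes, and the more positive for none of them. Over all genes tested it was the more negative for 8.19% and the more positive for 10.2%. MKI67 had means of 7.87 in growth media and 6.75 in DIFF with ZNF148 siRNA, a change of -1.12. The difference from the effect with nontargeting siRNA was -3.86 with all arrays (SE 0.294, limma, adjusted p = 1.4e-09) and -4.08 without growth replicate 1. In the same fit the effect was more positive with nontargeting siRNA for 37 of 78 sarcomere genes and more negative for 6. The 6 are near the share of 8.19% among all genes. CKM had means of 17.32 and 17.87 with ZNF148 siRNA, already high in growth media, and the difference was 4.27 without growth replicate 1 (limma, adjusted p = 3.13e-08) and 0.89 with it (adjusted p = 0.828).

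A further set of rises was not seen with ZNF148 siRNA in DIFF. The differences of effects that follow are those with all arrays. For NOTCH3 growth replicate 1 was the highest growth array with nontargeting siRNA. NOTCH3 had means of 14.92 in growth media and 14.34 in DIFF with that siRNA, against a mean of 14.98 in DIFF with nontargeting siRNA, and the effects differed by 3.67 (limma, adjusted p = 5.04e-06). SOX8 and CD24 fell with ZNF148 siRNA, by 1.49 and 1.35, where they rose with nontargeting siRNA, and the effects differed by 4.15 and 5.75 (limma, adjusted p = 1.88e-12 and 6.16e-14). PTGIS had means of 2.47 and 2.38 with ZNF148 siRNA. ID1 fell in both, by 2.98 with nontargeting siRNA and by 2.48 with ZNF148 siRNA, and the difference of -0.50 was less than 2-fold (limma, adjusted p = 0.0137). DUSP6 changed by -0.54 with ZNF148 siRNA (limma, adjusted p = 0.244), and the effects differed by -3.74 (adjusted p = 1.13e-07).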

How the data were processed

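RNA of 29 cultures was measured on 1-colour Agilent arrays (Cy3), of which 6 belong to the comparison. Per the file headers, the authors extracted spot intensity with Agilent Feature Extraction 10.7.3.1 (the study's methods name another version), and the deposited processed signal is background-subtracted. The authors also deposited a log2 matrix, quantile-normalized over all samples, which served as an alternative. Genome build was not used for the probes: 14 array headers name hg19 and 15 name none.

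From the intensities, control spots were left out, repeat spots were averaged as log2 values by probe, and all 29 arrays were quantile-normalized with limma 3.58.1 in R 4.3.3. Testing was limited to the 38839 of 58201 probes that 2 or more arrays showed well above background. Of all probes 31104 were named through RefSeq accessions (22439 genes), and the brightest tested probe, by its mean over all arrays, stood for a gene. The groups followed the labels. A single fit of 10 group means shared 1 variance estimate, and a probe was called at an adjusted p (Benjamini-Hochberg) under 0.05 and more than 2-fold. In the fit without growth replicate 1 the other 28 arrays kept their normalized values. A fold is given as a bound where a probe was not well above background on any array of a group, against the lowest signal well above background on each array. Between 45.3% and 53.5% of probes were well above background on the 6 arrays, and the number of arrays limits the precision.

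Gene lists and the comparison itself were chosen with earlier results of these data known, so counts of lists are descriptions. Genes named in the text are core members of the lists, the 5 largest further calls of each list, marker genes and ZNF148. To these come the 10 largest rises and falls in either fit. Those were taken among genes called, well above background on every array compared and without overlap of the groups. The Notch pathway genes NOTCH1, NOTCH2, HES1, HEYL and JAG1 were added outside these rules, after values were seen. Lists of 19 kinds were counted: myogenic regulators, progenitor genes and inhibitors, sarcomere, excitation-contraction, neuromuscular receptor, fusion and adhesion, muscle metabolism, DNA replication, mitosis, HIST1H histones, cell cycle brakes, ERK feedback, glucocorticoid response, sterol and fatty acid synthesis, insulin, FOXO and iron, IGF axis, matrix and smooth muscle, interferon-stimulated and inflammatory genes. The fit was tested on simulated data. Alternatives were another scaling, normexp background correction, the authors' matrix, other filters, slide and replicate blocks, array weights, other variance models, the methods' t-test, averaged probes and leaving out each array. Promoters came from RefSeq (GRCh38.p14) and were searched in Python 3.11.15. Where the table held no entry for a gene, none was searched. Some results are not reported here.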

Additional observations from a re-analysis of the deposited data

Results flagged for a closer look

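The effect of the media with nontargeting siRNA differed between 48 and 96 h, by the test of the difference itself, for 3143 probes, and for 2753 without growth replicate 1. The effect at 48 h differed between nontargeting and ZNF148 siRNA, by the same kind of test, for 5419 probes, and for 5790 without growth replicate 1. Both are differences of effects in the shared limma fit at an adjusted p under 0.05 and more than 2-fold. Groups here had 2 or 3 arrays, so no array was tested for standing apart from its group.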

How the results depend on the processing

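With normexp background correction 2478 probes and 1759 genes differed between the media at 48 h, in place of 5201 and 2927, while 1759 probes differed in effect between 48 and 96 h and 2991 between the siRNAs. With no fold threshold 14941 probes and 9097 genes differed. Leaving out each array in turn gave between 4792 and 5767 probes and between 2727 and 3248 genes. Under the other alternatives run these counts were within 1.5 times the main ones. The change of MYH3 turned from -0.21 to 2.70 without growth replicate 1, to 2.83 with the slide as a block as well, and to 1.96 with array weights, and ranged from -1.70 to 2.70 when each array was left out in turn. Without growth replicate 1, of the 150 genes named, 12 others passed that had not and 2 no longer passed. Of the 150, calls were lost for 7 with normexp (CLDN5, FKBP5, IGF1, IGFBP1, PDGFRA, SCN4A and TRDN), for 15 with only the 6 arrays (among them KLHL41, CDH15, CHRNG, STAC3, CKB, CDKN1C, TEAD4, RBM24 and IGFBP5), and in the methods' t-test for 14, or 26 after Benjamini-Hochberg adjustment, which include MYOD1, NOTCH3 and HEY1. The slide block without growth replicate 1, and lists with the slide block, were added after seeing the data.

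Growth and DIFF arrays of the same number did not deviate together (correlations of 0.00, -0.03 and -0.02), so the numbers were not taken as pairs. With the replicate block on the 6 arrays alone, 3777 probes and 2219 genes passed, and 25 of the 150 named genes no longer did. Signals near background limit the falls, which are then given as bounds. The hours since transfection may differ between the media and cannot be told apart from them.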
